A study of Mus musculus with 10 samples.

Results

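Endothelial and lymphatic vessel genes were described in inguinal-femoral subcutaneous white fat of F2 mice with opposite genotypes at Fob3a, an obesity locus on mouse chromosome 15. The 35 genes were taken from a fixed list of markers and regulators of blood and lymphatic endothelium, each read by 1 probe set. All 35 were measured, out of 19659 genes in all. FF mice carried the Fat-line allele on both chromosomes (Fat/Fat) and VV mice carried the V-line allele on both (V/V), which one label also calls the Lean-line allele. There were 5 FF and 5 VV mice, and each array came from a separate animal. All 10 were untreated females aged 14 weeks on chow, bred from the Fat line and the V line, a congenic line made by repeated backcrossing to the Fat line, so both groups share that background. The genotype marks a chromosomal region and not a single gene.

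Blood vessels are lined by endothelial cells that are held together by VE-cadherin and claudins and kept alive by vascular endothelial growth factors, angiopoietins and their receptor kinases. Lymphatic endothelium derives its identity from the transcription factor PROX1 and depends on VEGF-C and VEGF-D acting on VEGFR3. In fat, the capillary bed feeds adipocytes with oxygen and lipid, and inguinal fat also holds a lymph node and mammary ducts that carry their own vessels. In whole tissue, fewer cells of a type and less RNA per cell cannot be told apart.

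Values are log2 intensities, so a difference of 1 is a doubling on a multiplicative scale, and differences are FF minus VV. No vessel gene passed the test between genotypes. In limma with Benjamini-Hochberg adjustment over all genes, 0 of 35 passed an adjusted p of 0.05 in either direction, where 0.753% of all genes tested passed. The smallest adjusted p was 0.158, for Cldn5. At an unadjusted p under 0.05 there were 8 of 35, 5 higher and 3 lower in FF, against 16.4% of all genes tested (10.2% higher and 6.18% lower). After quantile normalisation the 8 became 3 higher and 4 lower, a setting for which the share of all genes is not given. The groups did not separate for any of the 35 genes, against 4.70% of all genes tested. The median difference of the 35 was -0.03, against 0.00 over all genes. It was 0.00 on the positive side when arrays were centred on their median. Array medians were 7.15 to 7.17 in FF and 7.18 to 7.21 in VV, so centring raised the difference of every gene alike. The gap between the 35 and all genes therefore stayed the same. The 95% interval lay within 0.5 log2 units of 0, a 1.41-fold change, for 24 of the 35 (68.6%), against 90.9% of all genes tested.

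**Figure D1:**
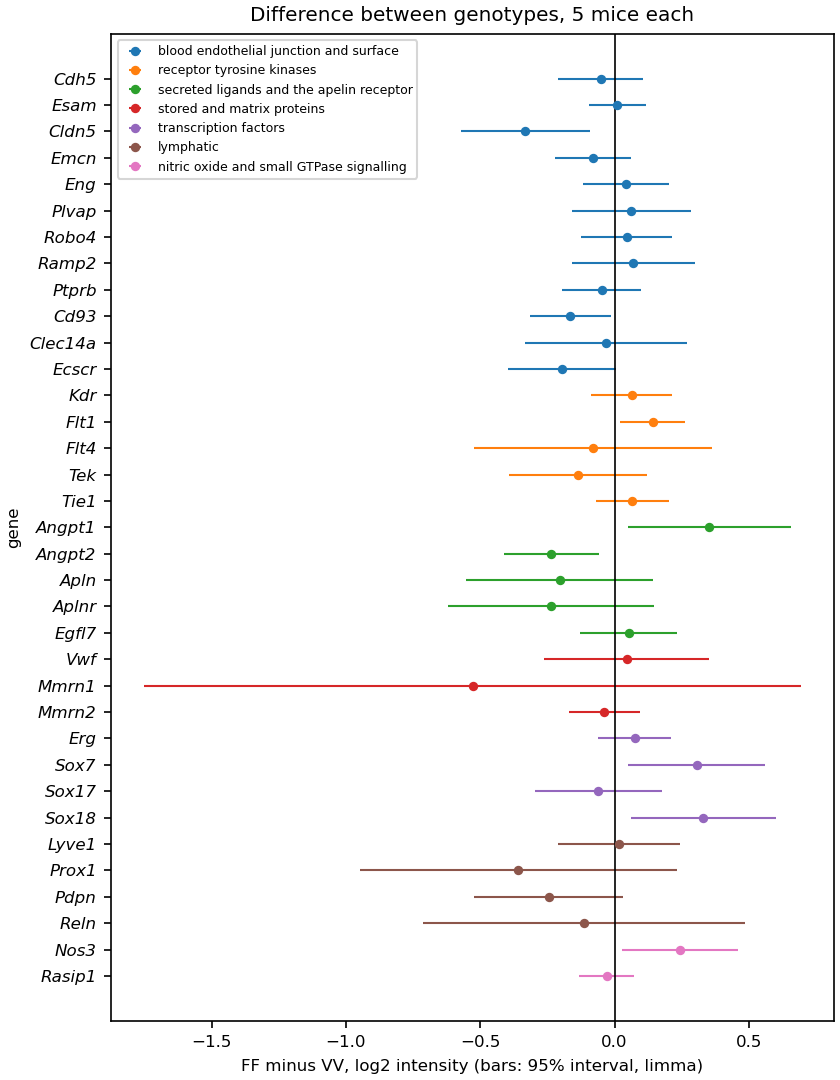
The plot of differences shows FF minus VV in log2 intensity on the x axis for each of the 35 genes, coloured by role, with 95% intervals from limma over 5 FF and 5 VV mice. The difference of Mmrn1 was -0.53 with an interval from -1.75 to 0.69, the widest of the 35, whereas that of Esam was 0.01 with an interval from -0.10 to 0.12.

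RNA of other tissues was present in some mice. A marker list was scored in each mouse as the mean of its genes' log2 values, each gene first set relative to its own mean. The skeletal muscle score reached 1.90 in FF replicate 1, and the next highest was 0.21 in VV replicate 1. The liver score reached 3.00 in VV replicate 1, against at most 0.40 elsewhere, and the array of that mouse correlated least with the rest (median r = 0.977). Scores of brown and beige adipocyte genes did not overlap between groups (0.37 to 1.40 in FF, -1.36 to -0.55 in VV). Of 14 macrophage genes 10 had an unadjusted p under 0.05 with lower means in FF, as did 13 of 15 lymphocyte genes. Over all genes tested the share was 6.18%. Macrophage scores ran from -0.28 to 0.05 in FF and from 0.03 to 0.33 in VV. Lymphocyte scores were -0.41 to 0.11 in FF and 0.08 to 0.45 in VV. Mature adipocyte markers averaged 13.02 to 13.11 in FF and 12.96 to 13.05 in VV. The score of the 8 blood vessel endothelium markers lay between -0.15 and 0.06 in FF and between -0.09 and 0.10 in VV. The part that RNA of other cells plays in the values below was not tested.

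The 12 adhesion and surface genes of blood endothelium included genes with little spread, such as Esam, and others with more, up to a range of 0.92 log2 units over the 10 mice for Cldn5. Their median SD within genotypes was 0.12, against 0.11 over all genes. Cdh5, which encodes VE-cadherin, the adhesion molecule of endothelial junctions, had 11.87, 11.79, 11.78, 11.64 and 11.89 in FF mice and 11.68, 11.99, 11.86, 11.96 and 11.73 in VV mice. The groups lay on top of each other, with FF at 0.965 times the VV level and a 95% interval from 0.865 to 1.08. Esam, another junctional adhesion molecule, varied by only 0.17 log2 units over all 10 mice. Emcn, the sialomucin endomucin, differed by -0.08, and Eng, which encodes endoglin, a co-receptor for BMP ligands, by 0.04. Ptprb, the phosphatase VE-PTP that acts on TIE2 and VE-cadherin, differed by -0.05. Plvap, a component of endothelial diaphragms, Robo4, a guidance receptor, and Ramp2, the partner of the adrenomedullin receptor, differed by 0.06, 0.04 and 0.07. Clec14a, a lectin-like surface protein, differed by -0.03 and Ecscr, an endothelial surface protein, by -0.20 (adjusted p = 0.317 in limma).

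Of these 12 genes, Cldn5 and Cd93 had an unadjusted p under 0.05, both with lower means in FF. Cldn5, which encodes the tight junction protein claudin-5, had 10.29, 10.63, 10.44, 10.81 and 10.59 in FF mice and 10.79, 10.80, 10.87, 11.21 and 10.75 in VV mice. Only FF replicate 4 reached the VV values, and VV replicate 4 stood above the other VV mice. The difference was -0.33 ± 0.11 (SE), with an adjusted p of 0.158 in limma and an exact two-sided permutation p of 0.0317. Cd93, a lectin-like receptor that binds the matrix protein multimerin 2, had 10.53, 10.71, 10.70, 10.70 and 10.60 in FF mice and 10.65, 10.97, 10.74, 10.93 and 10.77 in VV mice. Its lowest VV mouse, replicate 1, was the only VV mouse within the FF range, so the groups necessarily separate once that mouse is left out. The difference was -0.16 with all mice (adjusted p = 0.257 in limma) and -0.21 without VV replicate 1 (adjusted p = 0.148). With any 1 mouse left out, the difference of Cd93 ranged from -0.21 to -0.12 (limma adjusted p = 0.148 to 0.446).

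Of the receptor tyrosine kinases of blood endothelium, Flt1 had an unadjusted p under 0.05, and Kdr, Tie1 and Tek did not. Kdr, which encodes VEGFR2, the main signalling receptor for VEGF-A, differed by 0.06 with a 95% interval from -0.09 to 0.21. Tie1, an orphan partner of TIE2, differed by 0.07 and Tek, which encodes the angiopoietin receptor TIE2, by -0.14 with an interval from -0.39 to 0.12. Flt1 encodes VEGFR1, which binds VEGF-A and VEGF-B and also exists as a soluble trap. It had 9.96, 9.93, 9.87, 10.001 and 9.94 in FF mice and 9.78, 9.73, 9.85, 9.95 and 9.68 in VV mice. All but VV replicate 4 of the VV mice lay below the lowest FF mouse. The difference of Flt1 was 0.14 ± 0.06 (SE), a 1.10-fold level, with an adjusted p of 0.231 in limma.

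The 2 angiopoietins had differences of opposite sign, neither past the test. Angpt1 encodes the activating ligand of TIE2 and is made by cells around the vessel. It had 7.15, 7.23, 7.49, 6.86 and 6.97 in FF mice and 6.75, 6.47, 6.78, 7.18 and 6.75 in VV mice. FF values lay above 4 of the 5 VV mice, and VV replicate 4 reached into the FF range. The difference was 0.35 ± 0.14 (SE, adjusted p = 0.231 in limma). Angpt1 lies on chromosome 15 at 42424667 to 42676977 in GRCm38.p6, on the chromosome of Deptor, the gene named in the title of the series, which starts at 55112317. Angpt2 encodes the endothelial ligand that mostly blocks TIE2. It had 7.85, 8.12, 8.11, 7.96 and 8.0 in FF mice and 8.01, 8.43, 8.19, 8.23 and 8.34 in VV mice. Only VV replicate 1 fell into the FF range. The difference was -0.23 ± 0.08 (SE, adjusted p = 0.175 in limma). Without VV replicate 1 it was -0.29 with an adjusted p of 0.0793, the smallest that any of the 35 genes reached in 17 alternative analyses. With any 1 mouse left out, the difference of Angpt2 ranged from -0.29 to -0.19 (limma adjusted p = 0.0793 to 0.331).

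Apelin and its receptor varied widely within each genotype. Apln, the peptide ligand, ran from 7.86 to 8.45 in FF mice (median 8.33) and from 8.16 to 8.99 in VV mice (median 8.36). Aplnr, its receptor, ran from 8.23 to 9.11 in FF (median 9.0) and from 8.72 to 9.40 in VV (median 9.07). FF replicate 3 was lowest and VV replicate 2 highest for both genes. The differences of Apln and Aplnr were -0.20 and -0.24, with limma adjusted p of 0.569 and 0.549. Egfl7, a secreted protein of endothelium, differed by 0.05.

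The SoxF factors act together in vessel and lymphatic development, and 2 of the 3 had higher means in FF. Sox18 had 9.43, 9.77, 9.56, 9.45 and 9.84 in FF mice and 9.21, 9.56, 9.30, 8.91 and 9.42 in VV mice. Only VV replicate 2 lay among the FF values. Sox7 had 8.71, 8.93, 8.55, 8.76 and 9.12 in FF mice and 8.30, 8.75, 8.64, 8.34 and 8.52 in VV mice, with VV replicates 2 and 3 inside the FF range. The differences were 0.33 ± 0.12 for Sox18 and 0.31 ± 0.12 for Sox7 (SE, n = 5 each), with limma adjusted p of 0.206 and 0.214. Sox17 differed by -0.06, and VV replicate 5 was lowest at 8.07. Erg, an ETS factor that maintains endothelial identity, differed by 0.08 with an interval from -0.06 to 0.21.

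Nos3, the endothelial nitric oxide synthase, which relaxes vessels, had 9.27, 9.20, 8.95, 9.22 and 9.45 in FF mice and 8.98, 8.99, 9.06, 8.71 and 9.13 in VV mice. FF replicate 3 was the only FF mouse within the VV range. The difference was 0.24 ± 0.10 (SE, adjusted p = 0.244 in limma), and without FF replicate 3 it was 0.31 with an adjusted p of 0.101. Rasip1, a Ras-interacting protein needed for vessel lumens, differed by -0.03. Vwf, the clotting factor stored in endothelial granules, differed by 0.04 and Mmrn2, the matrix ligand of CD93 and CLEC14A, by -0.04.

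**Figure D2:**
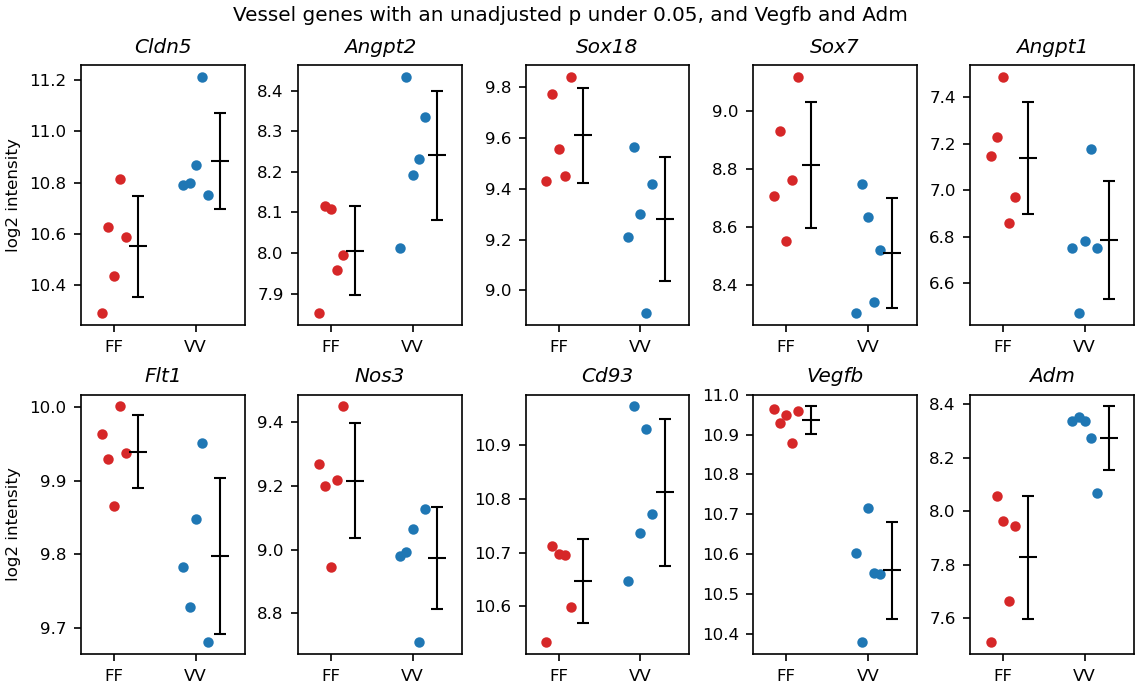
The dot plots show log2 intensity on each y axis, on a separate scale per gene, for the 8 vessel genes with an unadjusted p under 0.05 and for Vegfb and Adm from the wider list. Dots are mice and bars are mean and SD of 5. FF and VV overlap for the 8 vessel genes, whereas Vegfb lies between 10.88 and 10.96 in FF and between 10.38 and 10.72 in VV.

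Of the genes of lymphatic endothelium, Mmrn1, Reln, Prox1 and Flt4 were among the 5 vessel genes whose SD within genotypes stood above the 95th percentile of all genes, and the fifth was Aplnr. Mmrn1, which encodes multimerin 1, a protein of platelets and of lymphatic endothelium, had 6.50, 9.19, 9.78, 8.08 and 7.83 in FF mice and 7.65, 8.70, 9.12, 9.20 and 9.35 in VV mice. FF mice held both the lowest and the highest value, 9.72-fold apart. Reln, which encodes reelin, a secreted protein of lymphatic endothelium, had 7.89, 8.83, 9.28, 7.96 and 8.07 in FF mice and 8.10, 8.19, 8.69, 8.78 and 8.84 in VV mice. Flt4, which encodes VEGFR3, the receptor of VEGF-C and VEGF-D, had 7.75, 8.62, 8.72, 7.94 and 7.88 in FF mice and 7.87, 8.14, 8.40, 8.38 and 8.52 in VV mice. For all 3 genes FF replicates 2 and 3 were high and FF replicates 1, 4 and 5 and VV replicate 1 were low. The SD within genotypes was 1.02 for Mmrn1, 0.50 for Reln and 0.37 for Flt4, against a median of 0.11 over all genes.

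Neither genotype was higher in these genes beyond that spread. The differences were -0.53 ± 0.56 for Mmrn1, -0.11 ± 0.27 for Reln and -0.08 ± 0.20 for Flt4 (SE, n = 5 each), with limma adjusted p from 0.687 to 0.886. The 95% interval of Mmrn1 ran from 0.297-fold to 1.62-fold. Without FF replicate 1, the mouse with the highest muscle score, the differences of Reln and Flt4 turned to 0.02 and 0.03, and that of Mmrn1 was -0.08. Leaving out other mice moved them the other way, to as low as -0.33 for Reln, -0.22 for Flt4 and -0.90 for Mmrn1.

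Prox1, which encodes the transcription factor that sets lymphatic identity and is also expressed in hepatocytes, had 5.99, 7.13, 7.43, 6.37 and 6.53 in FF mice and 7.58, 6.62, 6.78, 7.02 and 7.24 in VV mice. Its highest value was in VV replicate 1, where Mmrn1, Reln and Flt4 were low and the liver score was 3.00. In FF mice the order of Prox1 was that of Flt4 except for FF replicates 4 and 5. The difference was -0.36 ± 0.27 with all mice (SE, adjusted p = 0.558 in limma) and -0.22 without VV replicate 1 (adjusted p = 0.724). With any 1 mouse left out, the difference of Prox1 ranged from -0.54 to -0.18 (limma adjusted p = 0.278 to 0.762).

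Lyve1 and Pdpn spread less within genotypes, with an SD of 0.18 and 0.23. Lyve1, a hyaluronan receptor of lymphatic endothelium and of some resident macrophages, ran from 10.98 to 11.26 in FF mice and from 10.78 to 11.34 in VV mice, a difference of 0.02. Pdpn, which encodes podoplanin and is also expressed by fibroblasts and mesothelium, had 9.41, 9.71, 9.67, 9.77 and 9.26 in FF mice and 9.64, 10.02, 9.52, 9.82 and 10.06 in VV mice. VV replicates 2, 4 and 5 lay above the FF range. The difference of Pdpn was -0.25 with an adjusted p of 0.371 in limma.

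**Figure D3:**
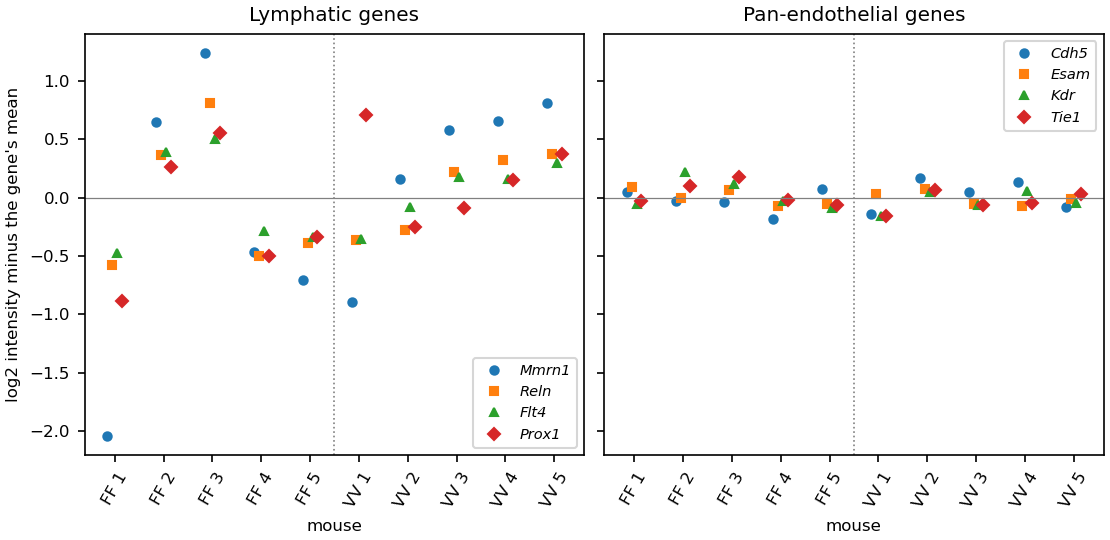
The plots by mouse show log2 intensity minus the gene's mean over 10 mice on the y axis and the 5 FF and 5 VV mice on the x axis. Mmrn1, Reln and Flt4 are low together in FF replicates 1, 4 and 5 and in VV replicate 1. Prox1, in the same panel, is at its highest in VV replicate 1. Cdh5, Esam, Kdr and Tie1 each span at most 0.38 over the 10 mice. Of the blood vessel endothelium markers not plotted, Cldn5 spans 0.92, Tek 0.68, Pecam1 0.44 and Emcn 0.29. The lymphatic genes Lyve1 and Pdpn, also not plotted, span 0.56 and 0.79.

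Over the 10 mice, all 595 pairs of the 35 genes were correlated, with p-values from 100000 permutations and Benjamini-Hochberg adjustment over the pairs. The median r was 0.17, and 3 pairs passed an adjusted p of 0.05, all positive. Flt4 followed Mmrn1 (Pearson r = 0.94, permutation p = 2e-05, adjusted p = 0.00595, Spearman coefficient = 0.94, permutation p = 0.00021, adjusted p = 0.0416). Flt4 also followed Reln (r = 0.97, permutation p = 2e-05, adjusted p = 0.00595, Spearman coefficient = 0.93, permutation p = 0.00039, adjusted p = 0.0580). Without the 2 mice farthest from the median of Flt4 both correlations were 0.96, and after removing each genotype's mean they were 0.95 and 0.97. Clec14a followed Tek (r = 0.87, permutation p = 0.0002, adjusted p = 0.0397, Spearman coefficient = 0.90, permutation p = 0.00079, adjusted p = 0.0940), with 0.77 without the 2 mice farthest from the median of Clec14a. A single genotype holds 5 mice, too few for a correlation of its own.

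Sox7 with Sox18 (r = 0.87, Spearman coefficient = 0.87) and Apln with Aplnr (r = 0.87, Spearman coefficient = 0.78) did not pass the adjustment over pairs, with permutation adjusted p of 0.0809 and 0.151 for r. Angpt1 ran opposite to Aplnr (r = -0.86, permutation adjusted p = 0.0809), and that correlation was -0.60 without the 2 mice farthest from the median of Angpt1.

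**Figure D4:**
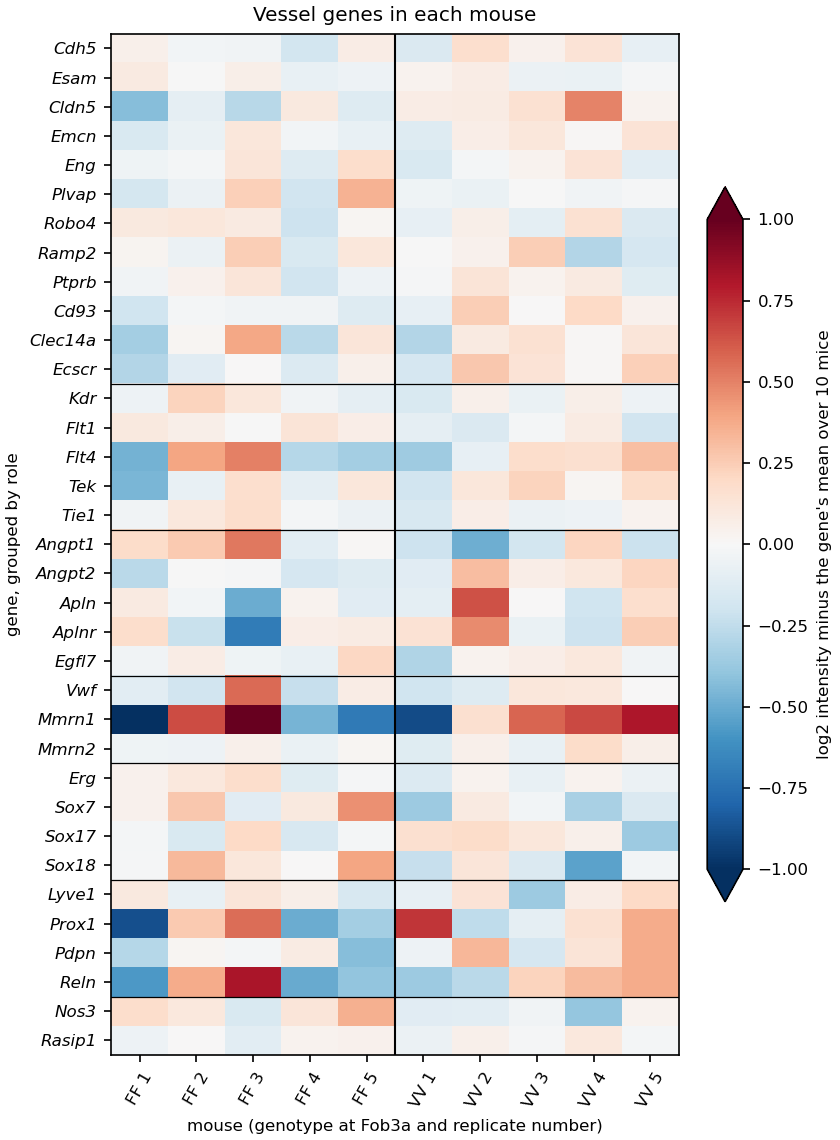
The heat map shows log2 intensity minus the gene's mean over 10 mice, from blue (lower) to red (higher), with the 35 genes grouped by role in rows and FF mice left of VV mice. The strongest colours fall in the rows of Mmrn1, Prox1 and Reln, and the rows of Aplnr and Apln also hold strong colours. No row changes colour cleanly between FF and VV.

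Mmrn1 was also set against the scores of 11 marker lists over the 10 mice, a choice made after seeing its values. It followed the pericyte and smooth muscle score (r = 0.88, permutation p = 0.00086, adjusted p = 0.00473, Spearman coefficient = 0.90, permutation adjusted p = 0.00968) and the preadipocyte and fibroblast score (r = 0.86, permutation p = 0.00136, adjusted p = 0.00499, Spearman coefficient = 0.87, permutation adjusted p = 0.0129). It ran opposite to the skeletal muscle score (r = -0.86, permutation p = 0.00049, adjusted p = 0.00473, Spearman coefficient = -0.76, permutation adjusted p = 0.0540). Without FF replicate 1 and VV replicate 1, the mice farthest from the median of Mmrn1, these were 0.86, 0.82 and -0.75. The lymphocyte and lymph node stroma scores had r of 0.22 and 0.23 with Mmrn1, with permutation p of 0.536 and 0.523. The pericyte and smooth muscle score ran from -0.38 to 0.25 in FF and from -0.35 to 0.47 in VV.

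Promoters of the 5 genes in the 3 pairs that passed are shown so that genes varying together can be compared by eye. They come from RefSeq on GRCm38.p6, which held 18 of the 35 genes with 23 starts, and each run is the 250 bases upstream of a transcription start, read 5′ to 3′ in the gene's direction. Capitals mark CAGGAA or its other strand TTCCTG, a core bound by ETS factors such as ERG, and GGGCGG or its other strand CCGCCC, the GC box. Mmrn1 lies at chr6:60944067-60944316 on the plus strand, Flt4 at chr11:49609429-49609678 on the plus strand, Reln at chr5:22344706-22344955 on the minus strand, Clec14a at chr12:58269259-58269508 on the minus strand and Tek at chr4:94739039-94739288 on the plus strand. The annotated Tek gene begins at 94739086, inside its stretch, so both marked copies of Tek lie within the annotated gene.
Mmrn1: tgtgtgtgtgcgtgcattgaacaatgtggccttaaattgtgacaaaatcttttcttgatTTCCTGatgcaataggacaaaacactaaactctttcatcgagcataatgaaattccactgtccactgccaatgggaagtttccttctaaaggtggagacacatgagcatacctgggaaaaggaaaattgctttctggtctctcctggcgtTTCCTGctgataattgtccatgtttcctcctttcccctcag
Flt4: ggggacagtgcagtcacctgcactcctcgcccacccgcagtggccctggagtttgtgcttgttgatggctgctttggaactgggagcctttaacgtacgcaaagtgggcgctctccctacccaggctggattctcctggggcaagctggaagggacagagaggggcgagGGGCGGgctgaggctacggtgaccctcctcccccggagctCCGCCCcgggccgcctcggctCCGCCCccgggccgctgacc
Reln: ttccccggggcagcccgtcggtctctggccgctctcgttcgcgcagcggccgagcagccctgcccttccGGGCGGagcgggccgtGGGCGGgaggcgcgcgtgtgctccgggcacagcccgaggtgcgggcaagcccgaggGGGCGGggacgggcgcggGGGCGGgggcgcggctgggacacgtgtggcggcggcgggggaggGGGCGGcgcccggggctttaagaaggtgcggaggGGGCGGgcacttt
Clec14a: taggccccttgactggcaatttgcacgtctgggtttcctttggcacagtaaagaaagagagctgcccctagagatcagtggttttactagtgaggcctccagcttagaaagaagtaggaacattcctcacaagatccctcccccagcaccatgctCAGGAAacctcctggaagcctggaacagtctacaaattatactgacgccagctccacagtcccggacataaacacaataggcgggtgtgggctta
Tek: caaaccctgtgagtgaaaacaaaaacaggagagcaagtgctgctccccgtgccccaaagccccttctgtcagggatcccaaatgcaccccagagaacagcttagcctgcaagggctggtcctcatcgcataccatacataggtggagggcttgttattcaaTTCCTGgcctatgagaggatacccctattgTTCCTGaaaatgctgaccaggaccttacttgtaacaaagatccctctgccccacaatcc

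The stretches of Flt4 and Reln both held the GC box, and that of Mmrn1 did not. The Mmrn1 stretch held 2 copies of the ETS core, no GC box and 42.4% G and C, whereas Flt4 held 3 GC boxes and Reln 6, with 68.4% and 80.0% G and C and no ETS core. Clec14a and Tek held 1 and 2 ETS cores and no GC box. Over windows from 250 bases before to 50 after the start, CAGGAA on either strand was in 12 of the 23 vessel gene promoters (52.2%), against 30.6% of all 32851 promoters in the table. The GC box was in 11 of 23 (47.8%), against 35.7% of all. CCGGAA, another ETS core, AGATAA, bound by GATA factors, and ACAATG, bound by SOX factors, were each in 2 of 23 (8.70%), against 14.9%, 11.2% and 12.6% of all. TATAAA was in 3 of 23 (13.0%), against 13.6%. CAGGAA and CCGGAA share the letters GGAA, and a match shows only that the letters are present.

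Other genes of vessels were taken from 3 further lists. Of 29 other endothelial genes 0 passed the adjusted p in limma, where 0.753% of all genes tested passed. At an unadjusted p under 0.05 there were 2 (6.90%), both lower in FF, against 16.4% of all genes tested (6.18% lower). Mcam, an adhesion molecule of endothelium and pericytes, differed by -0.19, Lmo2, a transcriptional cofactor of blood and endothelial cells, by -0.22 and Arhgef15, a guanine nucleotide exchange factor of endothelium, by 0.18 (adjusted p = 0.253 to 0.329). Pecam1, which encodes CD31, had 10.57, 10.66, 11.01, 10.64 and 10.77 in FF mice and 10.78, 10.99, 10.96, 11.01 and 10.78 in VV mice, a difference of -0.17 (adjusted p = 0.354 in limma). Cd34, found on endothelium and on progenitor cells, differed by -0.16. Of 14 other lymphatic vessel genes 0 passed in limma and 1 (7.14%) had an unadjusted p under 0.05, against 16.4% of all genes tested. It was Gja1, which encodes a connexin (0.23, adjusted p = 0.140). Stab1, a scavenger receptor also of macrophages, and Maf, a transcription factor also of macrophages, differed by -0.19 and -0.14. Foxc2, which controls lymphatic valves, was chosen after its values were seen: it had 7.41, 8.22, 8.47, 7.63 and 7.95 in FF mice and 7.57, 7.92, 8.14, 7.78 and 7.92 in VV mice. Its high FF mice, replicates 2 and 3, were those of Mmrn1.

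Of 30 genes of VEGF, Notch and ephrin signalling, 1 rose and none fell in limma, where 0.621% of all genes tested rose. Vegfb, which encodes a ligand of VEGFR1, had 10.96, 10.93, 10.95, 10.88 and 10.96 in FF mice and 10.60, 10.38, 10.72, 10.55 and 10.55 in VV mice. Every FF mouse lay above every VV mouse. The difference was 0.38 ± 0.06 (SE), a 1.30-fold level with an adjusted p of 0.0333 in limma and an exact permutation p of 0.00794, the smallest that 5 against 5 mice can give. Leaving out any one of FF replicates 1, 2 and 5 and VV replicates 2, 4 and 5 put the limma adjusted p between 0.0625 and 0.0898. Without FF replicate 1 and VV replicate 1 together, the mice with the high muscle and liver scores, it was 0.0849. With 1 mouse left out, the difference ranged from 0.33 to 0.42. The brown and beige adipocyte scores also did not overlap between groups. Vegfb itself ranged over 0.09 log2 units in FF and 0.34 in VV. In mouse order the brown and beige scores were 0.37, 1.06, 0.38, 1.40 and 0.90 in FF. In VV they were -0.74, -0.55, -0.57, -1.36 and -0.88. The part of those cells in Vegfb was not tested.

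Adm encodes adrenomedullin, a vasodilator peptide whose receptor needs RAMP2. It had 7.51, 8.06, 7.96, 7.67 and 7.94 in FF mice and 8.34, 8.35, 8.33, 8.27 and 8.07 in VV mice, and the groups did not overlap. The difference was -0.44 ± 0.10 (SE, adjusted p = 0.0720 in limma). When genes below the median intensity were left out, the limma adjusted p of Adm was 0.0440. In the other 16 of 17 alternatives Adm did not pass (up to 0.189). Epas1, which encodes the hypoxia factor HIF-2alpha, differed by 0.19 (limma adjusted p = 0.106). It passed when arrays were centred on their median and in none of the other 16 of 17 alternatives (limma adjusted p up to 0.259). Vegfa, the main growth factor of blood vessels, differed by 0.10 with an interval from -0.10 to 0.30. The lymphatic growth factors Vegfc and Vegfd differed by -0.09 and -0.04 (limma adjusted p = 0.766 and 0.929), and that of Vegfd turned to 0.00 on the positive side with centred arrays.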

How the data were processed

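Arrays of total RNA from 10 mice were deposited by the authors as log2 intensities made with RMA, per the submitters' processing notes. No label or header gives the RMA version or settings. Of 35557 probe sets 25689 had a value, and 20777 of these named 1 gene. The probe set with the highest mean was kept for each of 566 genes with several, which left 19659 genes. FF and VV were compared with limma 3.58.1 in R 4.3.3 (lmFit and eBayes, no covariate), and p-values were adjusted by Benjamini-Hochberg over all genes. Single values were also tested by exact two-sided permutation. The fit was tested on simulated data. The number of arrays limits the precision.

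The members and lists were chosen with earlier results of these data known. All members are named. Values in every mouse are given for those with an unadjusted p under 0.05 and the 3 with the largest difference besides, and for Cdh5, Reln and Flt4, chosen after their values were seen. The wider lists give genes past the test, the 3 with the smallest p and 5 fixed genes. Same-numbered mice did not deviate together (correlations from -0.26 to 0.10), so the numbers were not used as pairs. Alternatives were another scaling, filter, probe rule and variance setting, a replicate block, and leaving out mice. Promoter sequences came from RefSeq.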

Additional observations from a re-analysis of the deposited data

Results flagged for a closer look

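Of 70 groups of 5 mice (35 genes in each genotype), 3 held a mouse far from the other 4 by Dixon's ratio, and chance alone marks about 1 group in 20. For Robo4, FF replicate 4 was lowest among FF mice at 9.52, with the next at 9.75. For Cldn5, VV replicate 4 was highest among VV mice at 11.21, with the next at 10.87. For Sox17, VV replicate 5 was lowest among VV mice at 8.07, with the next at 8.49.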

How the results depend on the processing

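No vessel gene passed the adjusted p in any of 17 alternatives. Over all genes the number that passed was 148, and it ranged from 7 to 379 with 1 mouse left out. It was 5 with the replicate block, 601 with arrays centred on their median, 355 with genes below the median intensity left out, and 28 without FF replicate 1 and VV replicate 1 together. Array medians were 7.15 to 7.17 in FF and 7.18 to 7.21 in VV, so centring raised the FF minus VV difference of every gene alike. The cause of the other changes in count was not tested. No vessel gene separated the groups with all mice, 0 to 2 did with 1 mouse left out, and 2 (Angpt2 and Cd93) without FF replicate 1 and VV replicate 1. With 1 mouse left out these were, by mouse, Nos3, Cldn5, Angpt2, Cd93, Sox18, Angpt1 and Flt1. Leaving out the overlapping mouse of a gene fixes such a separation in advance. Smaller groups separate more easily, and the share of all genes that separated is given only with all mice (4.70%). The number of vessel genes higher at an unadjusted p under 0.05, 5 with all mice, was 2 to 5 with 1 mouse left out, 3 after quantile normalisation and 1 without both mice. The number lower, 3 with all mice, was 2 to 5 with 1 mouse left out and 5 with the replicate block. Over all genes the share at this unadjusted p was 16.4% with all mice and is not given for the alternatives. The call of Vegfb was lost with the replicate block (limma adjusted p = 0.143, count 0) and without both mice (adjusted p = 0.0849, count 0). The count of that list was 0 to 1 with 1 mouse left out and 2 with centred arrays, and 1 gene, Adm, fell when dim genes were left out.

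Small differences turned in sign. With quantile normalisation Esam was -0.0041, Clec14a 0.0020 and Lyve1 -0.0010. With centred arrays Clec14a was 0.0042, Rasip1 0.0076 and Vegfd 0.0006. Without both mice Esam was -0.0017, Lyve1 -0.0237 and Vegfd 0.0033. With 1 mouse left out, Esam ranged from -0.0119 to 0.0295, Plvap from -0.0159 to 0.1195, Clec14a from -0.1340 to 0.0481, Flt4 from -0.2153 to 0.0274, Egfl7 from -0.0162 to 0.0845, Vwf from -0.0908 to 0.1085, Mmrn2 from -0.0743 to 0.0022, Lyve1 from -0.0714 to 0.0693, Reln from -0.3306 to 0.0163 and Vegfd from -0.1482 to 0.0467.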
